A study of Mus musculus with 13 samples.

Results

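PD1hi T cells were compared with conventional CD4 T cells (Tconv) across 14102 of the 18649 genes in the deposited table. PD1hi cells were mouse splenic CD4+ T cells sorted for high PD-1 on the surface and no signal of a GFP reporter of Foxp3. Tconv cells came from the same tissue and carried neither PD-1 nor GFP. The comparison used every library of these populations, 8 of the 13 in the series. There were 3 PD1hi libraries, from experiments 3, 5 and 6, and 5 Tconv libraries, 1 from experiment 3 and 2 each from experiments 5 and 6. The other libraries were GFP+PD-1- regulatory T cells (Treg), which entered only the estimate of the spread. Both populations were gated by this reporter. The labels used here state no strain, age or treatment of the mice. The sort excluded reporter-positive cells, and a bulk library averages over every cell type left inside a gate.

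PD-1, encoded by Pdcd1, is an inhibitory receptor that activated T cells place on their surface. In the spleen, CD4 T cells high for PD-1 are a minority of antigen-experienced cells, and PD-1-negative cells include the naive cells that recirculate between blood and lymphoid organs. The change from naive to antigen-experienced T cell is known to involve receptor signalling and its feedback inhibitors, nutrient uptake, exit receptors, integrins and transcription factors. Those classes order the results here.

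Levels are scaled counts, that is, reads per gene divided by a size factor of the library. Values are given in the order of experiments 3, 5 and 6, with Tconv libraries of 1 experiment averaged, so that each mean ± SD has n = 3. A log2 change is PD1hi minus Tconv on the log2(scaled count + 1) scale, given ± SE, and understates the change of low genes. A gene was called higher or lower where limma's Benjamini-Hochberg adjusted p was under 0.05. The labels do not say whether the libraries came from separate animals, so a p-value reflects only how much these libraries spread, which may be technical. In bulk samples, fewer cells of a type and less RNA per cell cannot be told apart.

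Depth in the 8 libraries ran from 15971126 to 23849180 reads in genes. The shallowest was the PD1hi library of experiment 6, which stood apart. Its values were over 2-fold above both other PD1hi values in 797 genes and over 2-fold below both in 791. For the PD1hi library of experiment 3 these counts were 210 and 351, and for that of experiment 5 they were 184 and 233. Counts that move by over 1.5 times without it are given both ways. The sort genes were checked first and support nothing else. Pdcd1 was at 39710, 33610 and 38790 in PD1hi and at 1075, 1287 and 1033 in Tconv. Foxp3 was at 106 ± 33.4 in PD1hi and 291.5 ± 35.8 in Tconv. Cd4 was at 40740 ± 5837 in PD1hi and 28070 ± 1638 in Tconv. Its log2 change of 0.53 ± 0.14 had an adjusted p of 0.0222, which was 0.0548 with the 6 values of the comparison alone. Of 9 tested CD4 T cell genes, Cd4 among them, 3 were higher and 1 lower. The higher count was 0 with those 6 values alone or without a variance trend. It was also 0 without experiment 3 or 5, the PD1hi library of experiment 3 or 5, or the Tconv value of any 1 experiment. Without the Treg value of experiment 3 or 5 it was 1. It rose to 5 without the PD1hi library of experiment 6 and to 6 with libraries scaled to equal totals. The lower gene was Thy1, at 658, 956.8 and 1245 against 2022, 2160 and 1813. Its call was lost without experiment 5.

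Markers of other cells differed between the sorted populations. Of 9 tested B cell genes, 5 were higher in PD1hi and none lower, and 3 were higher without experiment 5 or the Tconv value of experiment 6. Cd22, a B cell inhibitory receptor, was at 1949, 1488 and 1588 in PD1hi and at 228, 182.7 and 124.6 in Tconv. Summed over 13 B cell genes without immunoglobulins, the level was 1757 to 2391 in PD1hi and 253 to 458.2 in Tconv, most of it Cd22 in PD1hi. The other 12 genes summed to 442, 269 and 308 in PD1hi and to 230.2, 120.9 and 128.4 in Tconv. Among these 12, Ms4a1, which encodes CD20, was at 87.1, 19.2 and 8.7 in PD1hi and at 52.2, 2.47 and 3.82 in Tconv, so its values overlapped. Cd79b did not overlap, at 145.5, 84.9 and 158.7 against 60.7, 58.3 and 54.5. Immunoglobulin genes had far higher levels in both populations. Ighm was at 33830, 37270 and 38840 against 22270, 20080 and 22940. Igkc was at 5778, 11150 and 15130 against 4670, 3356 and 2989. The 5 plasma cell genes summed to 3909 to 7334 in PD1hi and 2584 to 3249 in Tconv. Igj alone was at 2353, 4954 and 4292 against 2042, 1262 and 1454, and Prdm1 overlapped. CD8 T, NK and innate-like genes summed to 2702 to 4084 in PD1hi and 5977 to 8243 in Tconv. Nkg7 alone was at 1858, 3206 and 2637 against 3218, 5557 and 3557, and Eomes overlapped. Of 8 tested genes of this list 3 were lower and none higher, and 5 were lower with the 6 values of the comparison alone. Klrk1, an activating NK receptor, was at 74.5 ± 16.8 against 595.3 ± 81 there. Myeloid and dendritic genes summed to 3457 to 4421 in PD1hi and 1461 to 5798 in Tconv, so these ranges overlapped. The part of these cells in the results that follow was not tested.

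Of the 14102 genes tested, 4017 (28.5%) were called. There were 2195 higher in PD1hi (15.6%) and 1822 lower (12.9%). Among called genes, changes over 4-fold were upward in 801 and downward in 346. Over 16-fold there were 201 higher and 78 lower. The PD1hi values lay all above the Tconv values in 2933 genes (20.8%) and all below in 2740 (19.4%). Of the called genes, 4015 moved the same way in all 3 experiments and 3791 did not overlap. Calls were made on these same values, so both counts largely follow from the call and are no separate support. With libraries scaled to equal totals, 2712 genes were higher and 1388 lower, so 66.15% of calls were upward in place of 54.64%, and the median log2 change of all genes shifted by 0.14. The number called was 4774 without the PD1hi library of experiment 6, 2322 without experiment 3, 2438 without experiment 5, 2591 without the Tconv value of experiment 6 and 2662 without that of experiment 3.

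**Figure D1:**
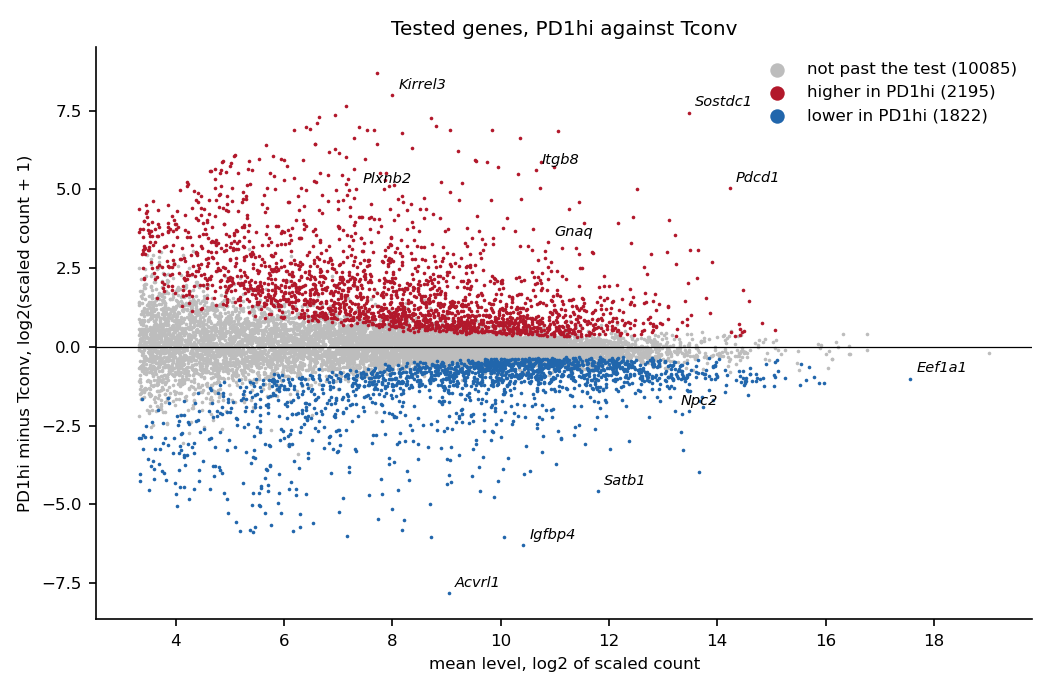
Each point is 1 of the 14102 tested genes, with the log2 of its mean scaled count on the x axis and its log2 change, PD1hi minus Tconv, on the y axis. The 2195 genes higher in PD1hi are red and reach further from 0 at low and middle levels than the 1822 lower genes in blue, while Eef1a1 lies among the lower genes at the right.

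**Figure D2:**
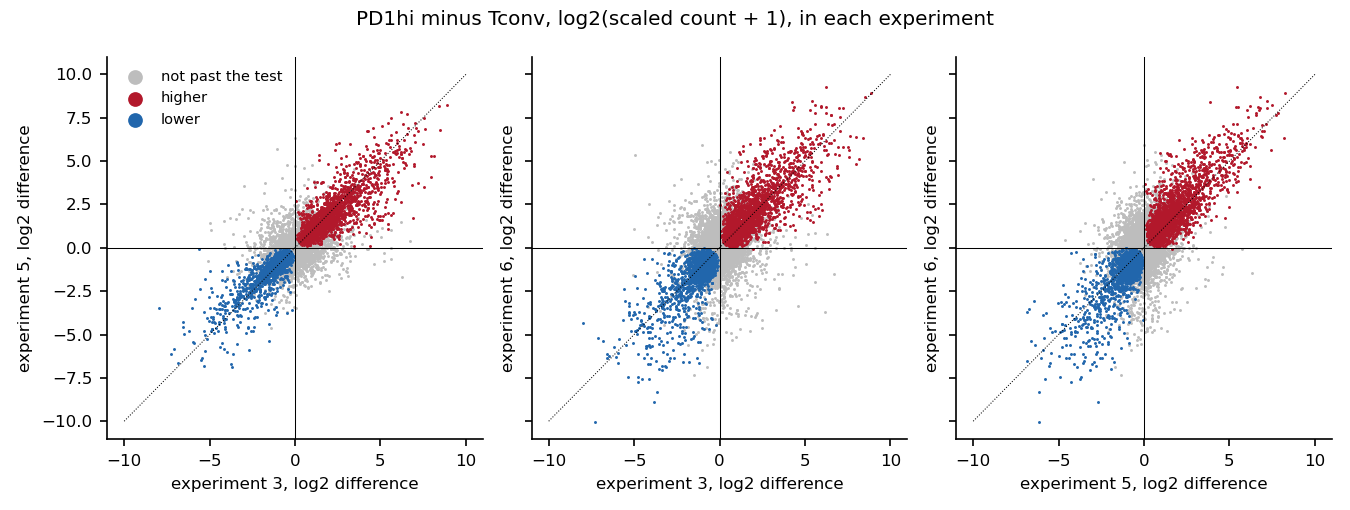
Log2 differences, PD1hi minus Tconv, of all tested genes in 1 experiment (x axis) against another (y axis), with genes higher in red, lower in blue and others in grey; the dotted line marks equal differences. The called genes, chosen from these same values, lie in the upper right and lower left, and the cloud is wider in the panels with experiment 6.

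The largest rises by log2 change among genes with at least 4 reads in each population included secreted and matrix proteins. Sostdc1, a secreted antagonist of BMP and Wnt ligands, was at 22610, 20450 and 24980 in PD1hi and at 173.7, 136.2 and 92.8 in Tconv, a log2 change of 7.43 ± 0.21 (adjusted p = 4.35e-07). Spp1, which encodes osteopontin, was at 3979, 4215 and 4514 against 40.5, 34.1 and 32.8. Every PD1hi value of these genes was far above every Tconv value. Fbn2, a microfibril protein, was at 887.5 ± 118 against 8.5 ± 9.34, and C3, the central complement component, at 368.6 ± 88.8 against 2.93 ± 2.7. Padi4, which converts protein arginine to citrulline, was at 1814, 2031 and 1604 against 12.8, 29.2 and 7.57. Among genes with 3 or fewer reads in Tconv, Gal, which encodes the neuropeptide galanin, had 1212 reads in PD1hi and none in Tconv, at least 686-fold higher if Tconv is set to a floor of 3 reads over all its libraries. Tmem26 had 578 reads against 1, a ratio of 982 with an exact 95% counting interval of 175 to 38800. Floors and intervals of this kind hold counting error alone.

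The largest falls by log2 change included receptors and binding proteins. Acvrl1, a type I receptor for BMP9 and BMP10, was at 6.15, 13.1 and 0 in PD1hi and at 1104, 1004 and 1044 in Tconv, a log2 change of -7.82 ± 0.68 (adjusted p = 5.76e-05). Igfbp4, which binds insulin-like growth factors, was at 20.5, 36.4 and 45.7 against 2479, 3682 and 1958. Ly6c1, a surface protein of the Ly6 family, was at 34.8 ± 21 against 2110 ± 282. None of these genes had overlapping values. Dntt, the template-independent polymerase of receptor gene assembly, was at 4.1, 4.04 and 2.17 against 308, 228.9 and 312.6. Ampd1, a muscle-type AMP deaminase, was at 9.77 ± 4.09 against 567.5 ± 61.4. Oas2, an interferon-induced enzyme, was at 9.99 ± 8.22 against 415.3 ± 108.

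By difference in level rather than by ratio, the falls were led by translation genes. Eef1a1, the elongation factor that brings aminoacyl-tRNA to the ribosome, was at 145500, 131600 and 109700 in PD1hi and at 281400, 238500 and 253500 in Tconv. Eef2, which moves the ribosome along, was at 38750 ± 2122 against 74590 ± 6243. Rpl3, Rpl4, Rplp0 and Rps3 were also among the 8 largest falls. The ribosomal protein genes were counted after these values were seen. Of 79 tested, 77 (97.5%) were lower and none higher, with a median log2 change of -0.97. With equal totals 75 were lower and the median was -0.83. They held 3.73% to 4.54% of the PD1hi scaled total and 6.89% to 7.93% of the Tconv total. Ribosomal protein genes have many near-identical copies, so their counts are uncertain. The largest rises in level after Pdcd1 were Cd82, a tetraspanin, at 35670 ± 688 against 10140 ± 796, and Ctsb, a lysosomal protease, at 36090 ± 4976 against 13120 ± 1012. Nrp1, a semaphorin and VEGF co-receptor, was at 20790, 22710 and 18440 against 2544, 2780 and 2089.

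The gene lists of signalling, metabolism, adhesion and transcription factors were read against the 28.5% of all tested genes that were called. The share was 49.6% of 345 signalling genes, 55.7% of 212 adhesion and migration genes and 51.2% of 242 transcription factors. It was 34.4% of 308 metabolic genes. These are descriptions of lists chosen with earlier results known.

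**Figure D3:**
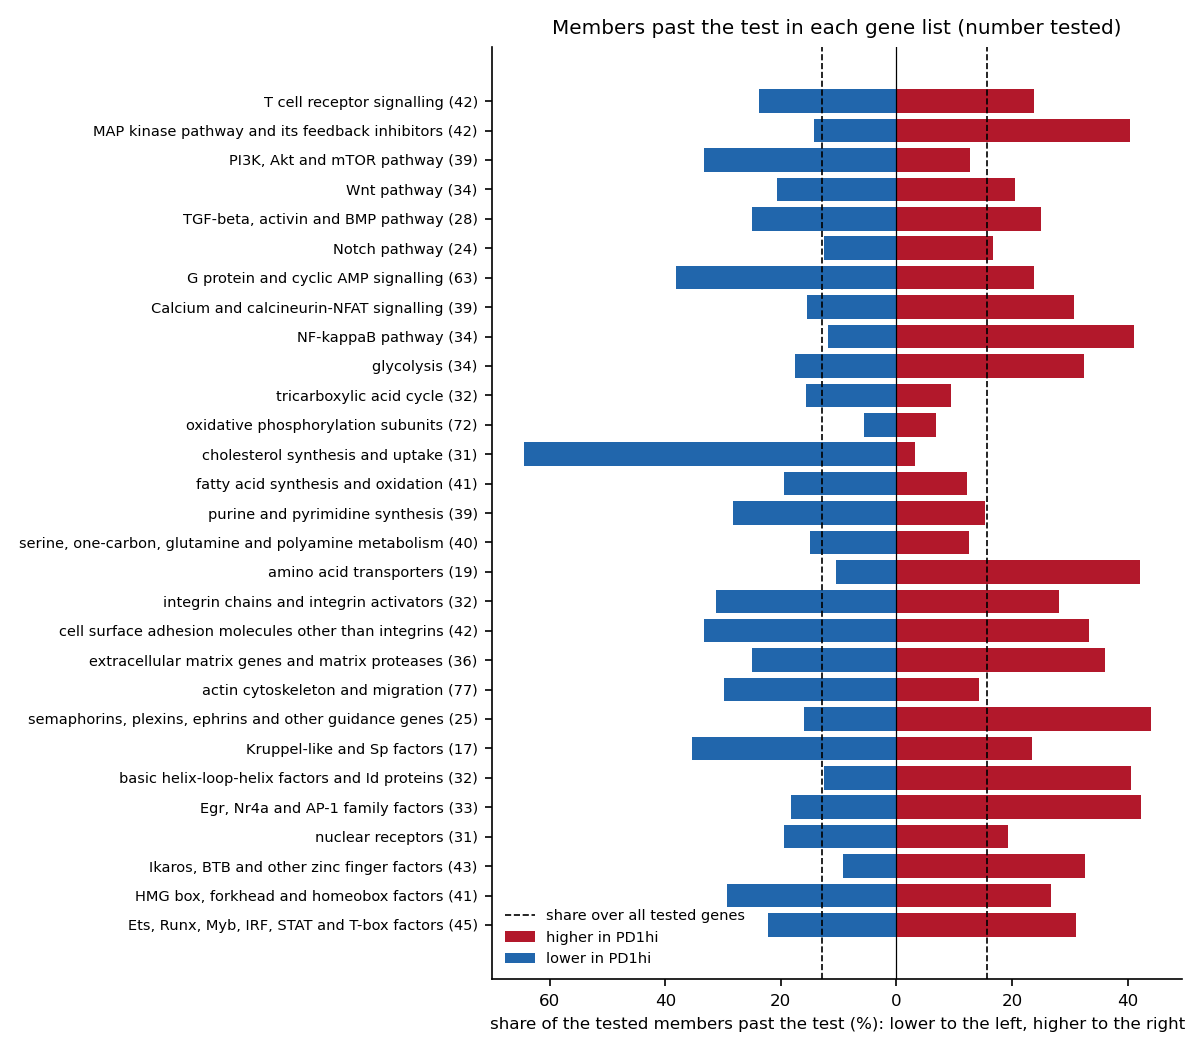
Share of the tested members of 29 gene lists called higher in PD1hi (red, right) and lower (blue, left), in percent, with the number tested in brackets. Dashed lines mark the shares over all tested genes, 15.6% higher and 12.9% lower; cholesterol genes reach furthest to the left, and oxidative phosphorylation subunits stay inside both lines.

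In T cell receptor signalling, 10 of 42 tested genes were higher and 10 lower. Malt1, a paracaspase of antigen receptor signalling, was at 3884, 3534 and 6036 in PD1hi and at 1118, 1122 and 1157 in Tconv. Lax1, an adaptor that limits receptor signals, was at 8333 ± 961 against 2785 ± 80.7. Txk, a Tec family kinase, moved the other way, at 602.6, 780 and 552.3 against 6086, 4865 and 5312 (log2 change -3.08 ± 0.16, adjusted p = 4.21e-06). Trat1, an adaptor that stabilises the receptor complex, was at 566.1 ± 83.8 against 3677 ± 712.

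MAP kinase genes were called upward more often, with 17 of 42 higher and 6 lower and a median log2 change of 0.52. Without the PD1hi library of experiment 6 that median was 0.21, with 18 higher and 7 lower. The higher genes included phosphatases that switch the kinases off. Dusp14 was at 702, 678 and 494.7 in PD1hi and at 32, 75.3 and 32.9 in Tconv. Dusp4 was at 170.1, 167.7 and 175 against 20.3, 16.2 and 5.46. No value of either gene overlapped between populations. Dusp5, another phosphatase of the list, was lower at 30.8, 52.5 and 90.2 against 184.4, 226.9 and 148.5. Its adjusted p was 0.0145, and 0.0991 without experiment 5. Spry1, a Ras pathway inhibitor named after its values were seen, was at 874 ± 118 against 103.4 ± 52.4. Rasgrp2, which activates Rap1, was lower at 288, 544.6 and 511 against 2574, 3650 and 3067.

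In the PI3K, Akt and mTOR list, 13 of 39 were lower and 5 higher. Without the experiment block the higher count was 2, as it was without experiment 5, without the PD1hi library of experiment 5 or without the Tconv value of experiment 3 or 6, and it was 3 without experiment 3. In turn, the lower count was 7 without experiment 3 or without the Tconv value of experiment 6, and to 8 without the Tconv value of experiment 3. Pik3r5, a regulatory subunit of PI3K gamma, was at 232.6, 424.4 and 230.5 in PD1hi and at 2410, 2644 and 2582 in Tconv (log2 change -3.16 ± 0.20, adjusted p = 1.2e-05). Sgk1, a kinase downstream of mTORC2, was at 1057, 914.4 and 461 against 4322, 3972 and 5136. Eif4ebp1, a translation repressor that mTORC1 inactivates, was higher at 255.1 ± 64.4 against 100.6 ± 26.6.

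G protein and cyclic AMP genes had 15 of 63 higher and 24 lower. Rgs16, which speeds the switching off of G proteins, was at 2494, 2291 and 2690 in PD1hi and at 68.2, 68.8 and 33.3 in Tconv (log2 change 5.50 ± 0.27, adjusted p = 4.02e-06). Gnaq, the Gq alpha subunit, was at 3348, 3477 and 3395 against 298.4, 370.6 and 351.6. No value of either gene overlapped between the populations. Among receptors, Vipr1, the receptor for vasoactive intestinal peptide, was at 36.9, 64.7 and 58.7 against 1075, 1030 and 982.7. Cnr2, a cannabinoid receptor, was at 82.8 ± 30 against 954.4 ± 80.3. Sphingosine 1-phosphate receptors, named after their values were seen, split. S1pr1, which drives exit from lymphoid organs, was at 6176 ± 1502 against 20093 ± 453. S1pr2, which couples to Gna13 and limits migration, was at 1226 ± 270 against 160.1 ± 44.5.

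Calcium and calcineurin genes had 12 of 39 higher and 6 lower. The higher count was 7 without the Tconv value of experiment 6. Rcan1, a calcineurin inhibitor and NFAT target, was at 522.7, 516.3 and 446.8 in PD1hi and at 30.9, 31.1 and 26 in Tconv. Ppp3ca, a catalytic subunit of calcineurin, was lower at 88.1, 130.3 and 157.6 against 857.8, 635.7 and 838.8. In the NF-kappaB list 14 of 34 were higher and 4 lower, and the higher count was 7 to 9 without experiment 3 or 5 or the Tconv value of experiment 3 or 6. Nfkb1, the p105 and p50 subunit, was at 4400 ± 1182 against 1502 ± 120, and Relb at 682.7 ± 182 against 267 ± 87.7. Map3k14, the kinase NIK, was lower at 1750 ± 134 against 3408 ± 88.5.

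Wnt genes had 7 of 34 called in each direction, and 11 lower without the PD1hi library of experiment 6. Ryk, a Wnt receptor, was at 266.9 ± 89 in PD1hi and 28.9 ± 12.1 in Tconv. Znrf3, which removes Wnt receptors from the surface, was at 466.3, 369.8 and 269.6 against 2173, 1629 and 2215. In the TGF-beta, activin and BMP list 7 of 28 were called in each direction, and 3 to 4 lower without experiment 3 or 5 or the Tconv value of experiment 3 or 6. Fst, which binds activin, had 152 reads in PD1hi and none in Tconv, at least 86.1-fold higher. Acvr1, another type I receptor, was at 54.8 ± 28.1 against 0.82 ± 0.27, opposite in direction to Acvrl1. Notch genes were called at 29.2%, close to the 28.5% of all genes, with 4 of 24 higher and 3 lower. Without the PD1hi library of experiment 6, 7 were higher, and without experiment 3 or the Tconv value of experiment 3 or 6, 1 was lower. Lfng, which adds sugars to Notch, was at 339.2 ± 117 against 780.9 ± 221.

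**Figure D4:**
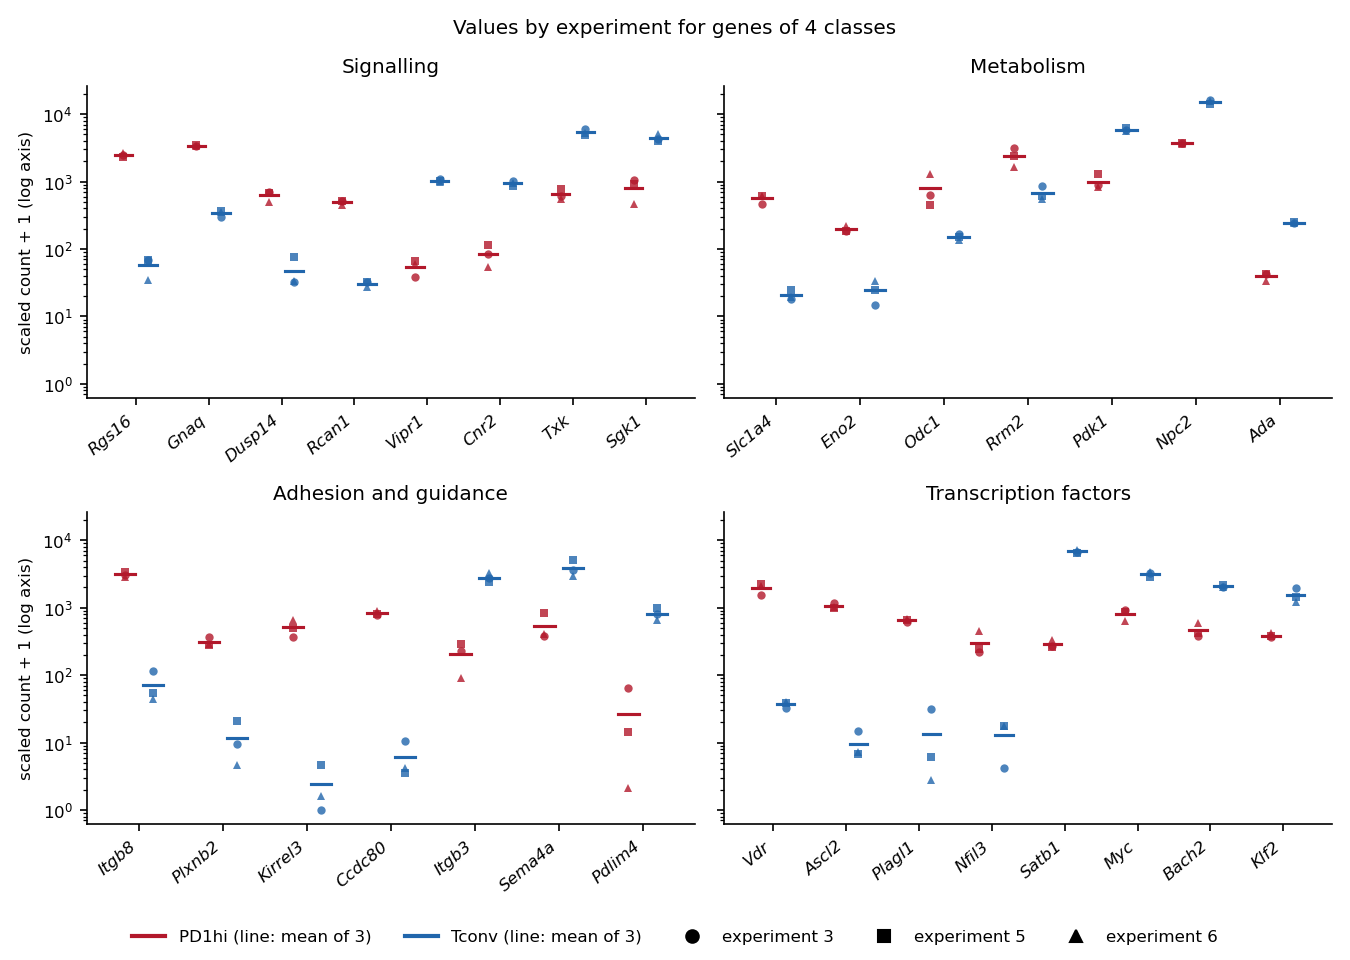
Scaled count + 1 on a log axis for genes of 4 classes, with PD1hi in red, Tconv in blue, a symbol for each experiment and a line at the mean of 3 values. Red and blue values do not overlap for the genes drawn, and the PD1hi value of experiment 6 is the lowest of 3 for Sgk1 and Itgb3.

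Cholesterol synthesis and uptake had the highest share of lower genes of the lists in the figure of list shares. Of 31 tested members 20 were lower and 1 higher, with a median log2 change of -0.58. With equal totals 14 were lower and 4 higher, and 4 were also higher without the PD1hi library of experiment 6 and 2 without experiment 6. The lower count was 13 without a variance trend, 10 without experiment 3, 9 without experiment 5 and 11 to 12 without the Tconv value of 1 experiment. Npc2, which carries cholesterol out of lysosomes, was at 3746, 3743 and 3665 in PD1hi and at 16100, 13970 and 15800 in Tconv (log2 change -2.04 ± 0.11, adjusted p = 4.33e-06). Every PD1hi value was below every Tconv value. The other members were read as a list. Of the synthesis enzymes, Idi1, an isopentenyl diphosphate isomerase, was at 183.5, 113.2 and 38.1 against 336.7, 304.6 and 346.8. Sqle, which makes squalene epoxide, was at 503.2, 499.1 and 231.6 against 1394, 1194 and 1270. The PD1hi value of experiment 6 was the lowest for both. Fdft1, which makes squalene, was at 1046 ± 52.1 against 1049 ± 108 and was not called. Abca1, which exports cholesterol, was lower at 90.6 ± 8.95 against 318.7 ± 84.9. Tm7sf2, a sterol reductase, was the higher member at 303.1 ± 46.8 against 133.5 ± 25.2.

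**Figure D5:**
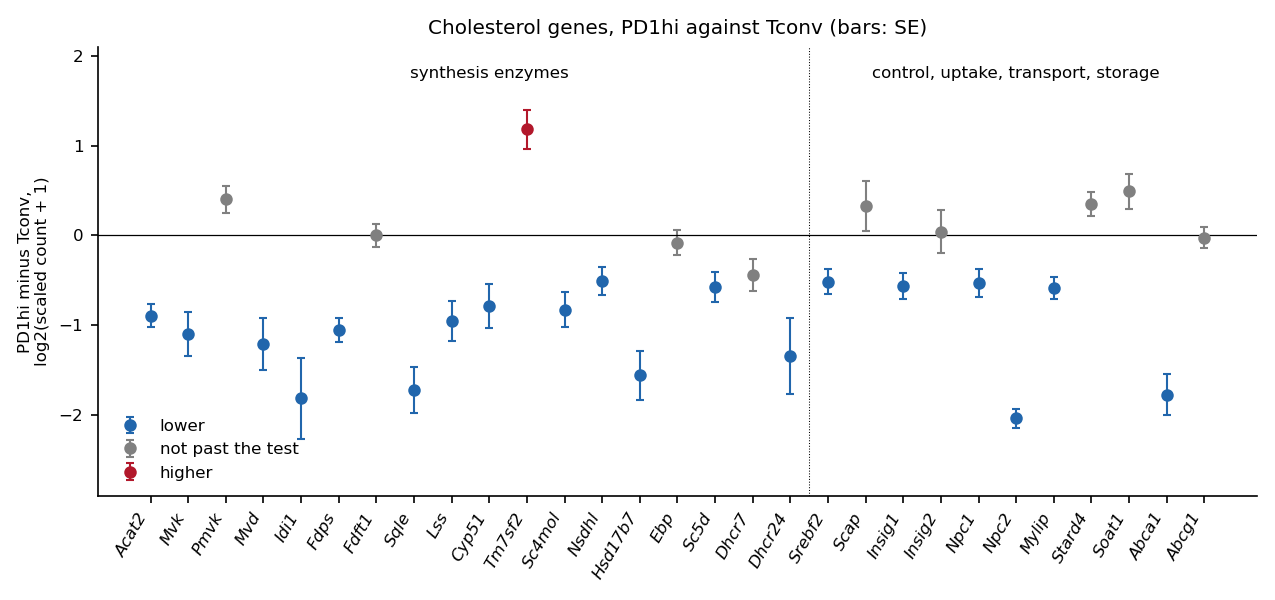
Log2 change ± SE (y axis, PD1hi minus Tconv) of the tested cholesterol genes named in the plot, synthesis enzymes in pathway order on the left of the dotted line. Lower genes are blue, with Npc2 at -2.04, Tm7sf2 is red, and genes in grey, Fdft1 among them, were not called.

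Promoters of cholesterol genes are shown because 20 of the 31 tested members of that list fell. RefSeq windows (GRCm38.p6, 250 bases before to 50 after the start) matched 22 of the 31 tested members, 15 of them lower. The motifs were chosen after the expression values were seen and were searched on both strands. TCACNCCAC or its reverse complement GTGGNGTGA was in 0 of the 22 and in 1.3% of 8697 tested genes with a window. CCAAT or its reverse complement ATTGG was in 19 of 22 (86.4%) and in 13 of the 15 lower members (86.7%), against 43.3% of tested genes and 37.4% of all windows. It was in 44.8% of genes higher in PD1hi and 40% of genes lower. A gene with several windows counted if any held the motif. A match describes letters and is no evidence of binding. The windows of Idi1 (chr13:8885356-8885655, + strand), Mvd (chr8:122443373-122443672, - strand) and Insig1 (chr5:28071162-28071461, + strand) are printed 5′ to 3′ along the gene, with CCAAT and ATTGG in capitals.
Idi1: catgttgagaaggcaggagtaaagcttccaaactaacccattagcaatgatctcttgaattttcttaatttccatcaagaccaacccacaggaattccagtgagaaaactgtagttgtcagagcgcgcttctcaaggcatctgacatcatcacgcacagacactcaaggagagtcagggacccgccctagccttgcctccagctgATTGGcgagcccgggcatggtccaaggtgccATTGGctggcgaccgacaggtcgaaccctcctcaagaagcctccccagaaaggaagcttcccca
Mvd: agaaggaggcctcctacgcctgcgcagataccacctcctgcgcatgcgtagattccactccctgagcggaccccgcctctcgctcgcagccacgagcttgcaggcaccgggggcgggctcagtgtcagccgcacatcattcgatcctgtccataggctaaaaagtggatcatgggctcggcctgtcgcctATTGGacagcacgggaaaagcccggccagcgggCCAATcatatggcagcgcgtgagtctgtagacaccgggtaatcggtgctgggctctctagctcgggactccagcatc
Insig1: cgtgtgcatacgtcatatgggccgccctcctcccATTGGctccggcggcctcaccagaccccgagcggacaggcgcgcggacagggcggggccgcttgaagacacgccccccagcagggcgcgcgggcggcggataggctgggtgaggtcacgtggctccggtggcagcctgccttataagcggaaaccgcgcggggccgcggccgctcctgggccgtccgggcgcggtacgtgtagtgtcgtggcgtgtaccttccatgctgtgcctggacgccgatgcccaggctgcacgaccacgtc
Mvd, a decarboxylase of the mevalonate pathway, was at 112.7, 132.4 and 235.9 in PD1hi and at 320.8, 435.7 and 317 in Tconv. Insig1, which retains the sterol sensor in the endoplasmic reticulum, was at 443.8, 475.9 and 502.3 against 730, 666.5 and 700.7. These are weak calls. On leaving out a library or an experiment, the adjusted p reached 0.0832 for Idi1 (without the Tconv value of experiment 6), 0.141 for Mvd (without experiment 5) and 0.161 for Insig1 (without experiment 3), and with equal totals that of Insig1 was 0.0752. The windows of Idi1 and Mvd each hold 2 matches and that of Insig1 holds 1.

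Glycolysis genes had 11 of 34 higher and 6 lower, and 3 lower without experiment 3 or the Tconv value of experiment 6. Eno2, an enolase, was at 185.5, 183.9 and 216.3 in PD1hi and at 13.9, 23.5 and 33 in Tconv. Slc16a3, a lactate exporter, was at 166.7 ± 29.8 against 37 ± 18.2. The list did not move one way. Pdk1, a kinase that restrains pyruvate dehydrogenase, was at 884.5, 1274 and 820.8 against 5825, 6295 and 5572. The glucose transporter Slc2a3 was at 728.8 ± 120 against 2912 ± 180. Oxidative phosphorylation subunits were called less than the 28.5% of all genes, with 5 of 72 higher and 4 lower (12.5%). Without the PD1hi library of experiment 6, 10 were lower. Without experiment 3 or 5 or the Tconv value of experiment 3 or 6, 0 were higher and 1 to 2 lower. Without the PD1hi library of experiment 3 or 5 or the Tconv value of experiment 5, 1 to 3 were higher and 1 to 2 lower. With equal totals 7 were higher and 1 lower, and without the experiment block 3 were higher. Cox7a2l, a factor of respiratory supercomplexes, was at 2950 ± 504 against 6876 ± 629. Tricarboxylic acid cycle genes were called at 25%, near the 28.5% of all genes, with 3 of 32 higher and 5 lower. There were 1 higher and 2 to 3 lower without experiment 3 or 5 or the Tconv value of any 1 experiment. Without the PD1hi library of experiment 6, 5 were higher. The list also holds genes beside the cycle, such as Pck2, mitochondrial phosphoenolpyruvate carboxykinase, at 1573 ± 49.2 against 743.8 ± 40.4. Idh2 was at 498.3 ± 97.8 against 1151 ± 171.

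Amino acid transporters had 8 of 19 higher and 2 lower, and 1 lower without the experiment block, with equal totals or without any 1 experiment, PD1hi library or Tconv value. Slc1a4, a neutral amino acid transporter, was at 465.3, 607.2 and 612.1 in PD1hi and at 17.1, 23.6 and 18.2 in Tconv. Slc7a10, another neutral transporter, had 554 reads in PD1hi and 1 in Tconv, a ratio of 941 (exact 95% counting interval 168 to 37200). Both were higher without overlap. Odc1, the first enzyme of polyamine synthesis, was at 628.3, 453.7 and 1292 against 166.2, 147.9 and 135.6. In nucleotide synthesis 6 of 39 were higher and 11 lower. The lower count was 4 without experiment 3, and 7 without experiment 5 or the Tconv value of experiment 5 or 6. Scaling libraries to equal totals turned the balance of this list, with 10 higher and 9 lower. Rrm2, a ribonucleotide reductase subunit, was at 3196, 2368 and 1668 against 860, 619.1 and 558.9. Ada, which removes adenosine, was lower at 42, 41.4 and 32.6 against 239.8, 248.2 and 243.8. In fatty acid metabolism 31.7% were called, near the 28.5% of all genes. There 5 of 41 were higher and 8 lower, and 3 of each without the Tconv value of experiment 3 or 6. Without experiment 3 or 5 these counts were 3 and 5, and without the PD1hi library of experiment 6, 8 were higher. Scaling to equal totals gave 8 higher and 6 lower. Cpt1c, a carnitine palmitoyltransferase family member, was at 64.9 ± 35.8 against 0.92 ± 0.81.

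Integrin genes changed in both directions, with 9 of 32 higher and 10 lower. Itgb8, the partner of alpha V that activates latent TGF-beta, was at 3099, 3425 and 2894 in PD1hi and at 113, 52.7 and 42.9 in Tconv (log2 change 5.60 ± 0.30, adjusted p = 5.85e-06). Itgav, the alpha V chain, named after its values were seen, was at 2172 ± 626 against 492.7 ± 30.3. Itgb3, another partner of alpha V, was lower at 229.6, 285.9 and 89.2 against 2716, 2393 and 3261. Itga2, a collagen receptor chain, was at 6.25 ± 1.09 against 82.1 ± 15.8.

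Other adhesion molecules had 14 of 42 called in each direction, and 9 higher without experiment 5. Kirrel3, an immunoglobulin superfamily adhesion molecule of neurons, was at 362.8, 503.2 and 666.4 in PD1hi and at 0, 3.58 and 0.59 in Tconv. Alcam, the ligand of CD6, was at 454.4 ± 154 against 48.7 ± 19.9. Neither gene overlapped between populations. Matrix genes and proteases had 13 of 36 higher and 9 lower, and 7 higher without experiment 3. Ccdc80, a matrix-associated protein, was at 784, 817.4 and 904.5 against 9.59, 2.59 and 3.16. Mmp25, a membrane-anchored protease, had 2 reads in PD1hi and 381 in Tconv. In actin and migration genes 23 of 77 were lower and 11 higher. Without experiment 3 the lower count was 12, and without the Tconv value of experiment 3 it was 15. Without experiment 5, 6 were higher. Pdlim4, an actin-associated LIM protein, was at 62.5, 13.1 and 1.09 against 800.3, 986.9 and 665.7. Its PD1hi values differed widely among themselves. Guidance genes had 11 of 25 higher and 4 lower, and 7 higher without experiment 5. Plxnb2, a semaphorin receptor, was at 369, 276.8 and 290.3 against 8.53, 19.5 and 3.59, and Sema4a, a semaphorin, was lower at 542.5 ± 257 against 3867 ± 1089.

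Among transcription factors, basic helix-loop-helix and Id genes had 13 of 32 higher and 4 lower. Ascl2, a factor linked to follicular helper T cells, was at 1188, 973 and 1021 in PD1hi and at 13.9, 5.87 and 6.28 in Tconv. Myc, a driver of growth, was lower at 922.4, 873 and 640.3 against 3307, 2852 and 3353. The list of Egr, Nr4a and AP-1 family genes, which also holds Cebpa, Nfil3 and Bach2, had 14 of 33 higher and 6 lower. Without the experiment block, without experiment 3 or without the Tconv value of experiment 3, 3 were lower, and 2 without experiment 5. Cebpa, known for myeloid differentiation, was at 229.6, 155.6 and 617.5 against 2.13, 2.63 and 0. Its PD1hi value in experiment 6 was the highest. Nfil3 was at 302.5 ± 124 against 12 ± 7.65. Bach2, which restrains effector differentiation, was lower at 382.3, 422.3 and 589.2 against 2035, 2156 and 2059.

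Nuclear receptors had 6 of 31 called in each direction, and 3 lower without experiment 3 or the Tconv value of experiment 3 or 6. Vdr, the vitamin D receptor, was at 1543, 2220 and 2091 in PD1hi and at 32, 37.9 and 38.4 in Tconv (log2 change 5.71 ± 0.26, adjusted p = 2.55e-06). Nr1d1, a repressor of the circadian clock, was lower at 92.6 ± 37.6 against 262.8 ± 37.7. Zinc finger genes had 14 of 43 higher and 4 lower, 9 higher without experiment 5 and 7 lower without the PD1hi library of experiment 6. Plagl1, an imprinted zinc finger factor, was at 614.9, 651.7 and 681.6 against 30.9, 5.18 and 1.78. Ikzf2, which encodes Helios, was at 17810, 14130 and 17890 against 984.6, 1132 and 902.1. Ikzf1, its relative Ikaros, was lower at 10530 ± 2028 against 21390 ± 2655. HMG box, forkhead and homeobox genes had 11 of 41 higher and 12 lower. Tox2 was at 2909, 4419 and 4542 against 102.3, 86.3 and 45.3. Satb1, a chromatin organiser, was lower at 268.5, 263.7 and 329.4 against 6711, 6579 and 7191 (log2 change -4.57 ± 0.11, adjusted p = 2.09e-07). Lef1 was at 5726 ± 1051 against 21510 ± 2834. Klf2, which sustains expression of exit and homing receptors, was at 361.8, 373.8 and 418.6 against 1936, 1421 and 1209. Irf4, induced by receptor signals, was higher at 1655 ± 335 against 401.8 ± 52.3, and Irf7, of the interferon response, was lower at 1696 ± 196 against 3491 ± 426.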

How the data were processed

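RNA from sorted cells was extracted with Trizol, depleted of ribosomal RNA and sequenced on Ion Torrent, per the labels' protocols. HTSeq 0.5.4, Picard and limma are named in the submitters' processing notes. For the aligner, strand setting and role of each build, the status is: not given in the sources used here. A table of signal values was deposited by the authors, counts scaled by size factors. Each signal value equalled 1 plus whole reads times a library constant (100% of values within 0.001 reads), and 1 was subtracted.

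Libraries of 1 experiment and population were averaged. Genes with a mean of at least 10 over the 6 PD1hi and Tconv values were tested in R 4.3.3 by limma 3.58.1, trend included, on log2(scaled count + 1). The fit held 9 values, Treg included, and the experiment number as a block. The code was tested on simulated data. The number comes from the titles. Deviations of PD1hi and Tconv from their means correlated at 0.194, 0.121 and 0.011 in experiments 3, 5 and 6. Between different experiments they correlated at -0.281 to 0.131. The highest of these, PD1hi of experiment 6 with Tconv of experiment 5, was above the matched value of experiment 6.

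Named genes are the sort genes, up to 2 called genes per list and direction with the largest log2 change, the 12 largest log2 changes and the 8 largest level differences per direction, and the 4 best-counted genes with 3 or fewer reads in a population; a selection of these is printed. Members and lists were chosen with earlier results of these data known. Some genes the rule names are not reported here.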

Additional observations from a re-analysis of the deposited data

How the results depend on the processing

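Of 171 named genes 144 stayed on their side of the threshold under every alternative that could be fitted (up to 24), and 26 lost their call under at least 1. Most named genes were picked for large changes among called genes, so these counts say little about the other calls. Fdft1, not called, changed sign around 0: 0.144 with equal totals, 0.012 with upper-quartile scaling, and -0.077 to 0.115 on leaving out a library or an experiment; the cause was not tested. Leaving out a library or an experiment gave 2322 to 4774 called genes, 1365 to 2526 higher and 957 to 2248 lower. The lowest count of called genes came without experiment 3. Without the replicate block on experiment, 3730 genes were called, 2043 higher and 1687 lower, and the calls of Pik3r2, Slc25a1, Cox5b, Slc7a5 and Klf11 were lost. With equal totals 66.15% of calls were higher. Upper-quartile scaling, chosen after seeing the data, gave 4034 calls. Tests on read counts with edgeR and DESeq2 and scaling by TMM were planned and not run. Whole reads follow from the deposited values only once the added 1 is taken off, and the values as deposited did not pass the check for whole reads that was required before a count test. With 3 values a side, low genes have wide errors.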
